A study of Mus musculus with 3 samples.

Results

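Imprinted genes are transcribed mainly from the copy inherited from the mother or mainly from the copy inherited from the father. The 36 imprinted genes listed for this report were chosen by name, and 35 of them had a row in at least 1 of 3 RNA-seq tables that list 17209 genes in all. This list and the other gene lists below were chosen with earlier results of these data known. Nap1l5, a gene of the nucleosome assembly protein family, was not listed in any of the tables. The RNA came from mouse epiblast stem cells (EpiSCs) of strain 129, labelled passage 1, a pluripotent cell type that resembles the epiblast after implantation. The IWR1 library came from cells treated for 12 h with 2 µM IWR1, an inhibitor of tankyrases that dampens Wnt signalling. The Y27 library came from cells treated for 12 h with 0.5 µM Y27632 (Y27), an inhibitor of the kinase ROCK, which drives actomyosin contraction. The NT library came from cells after overnight removal of both inhibitors, in which the cells are otherwise kept, with serum and on gelatin. Each group had 1 library, so the differences below could not be checked against replicates and have no p-values. Treatment and the overnight removal in NT cannot be told apart, and the comparisons of IWR1 and of Y27 with NT share that library. The strain is inbred and the tables count reads per gene, so the parental copy in use was not measured here and is given as background.

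The estimated reads per library summed to 5607725 in IWR1, 5459332 in Y27 and 5767550 in NT. CPM below are these counts scaled to library size, and FPKM are the deposited values per kilobase of transcript. Ranges after a fold are exact 95% intervals and cover counting error only. A gene was compared when its mean over the 3 libraries was at least 1 CPM, which 30 of the 35 listed members and 12955 genes in all met. It counted as different at 2-fold on a log2 scale after adding 1 CPM to both values, a scale on which differences of low genes come out smaller than they are. Log2 differences were also computed after a correction that subtracts their fitted dependence on transcript length and GC content. All 10 EpiSC markers used, Pou5f1 and Sox2 among them, were listed, with summed levels of 4027 CPM in IWR1, 3222 CPM in Y27 and 3535 CPM in NT. Dnmt3b, looked up below as an imprinting regulator, is also in this sum, with 750, 425 and 379 CPM. The log2 differences of the 10 in IWR1 over NT ran from -0.39 to 1.67, with 7 above 0 and 3 below. In Y27 over NT 6 lay above 0 and 4 below. Of the trophoblast markers 7 of 10 were listed, summing to 122 CPM in IWR1, 299 CPM in Y27 and 246 CPM in NT, and Elf5, Prl3d1 and Tpbpa were not listed. These markers did not move together. The log2 differences of the 6 compared ran from -3.82 to 0.29 in IWR1 over NT and from -4.32 to 1.06 in IWR1 over Y27. In each, 2 lay above 0 and 4 below. Of the extraembryonic endoderm markers 5 of 8 were listed, at 277, 545 and 463 CPM in IWR1, Y27 and NT, without Sox17, Afp and Ttr. Fibroblast markers, 7 of 8 of them listed, summed to 73.2, 56.5 and 117.3 CPM, and streak and mesoderm markers to 540, 2048 and 2148 CPM, in the same order of libraries. The part of these other cell types in the results below was not tested, and in bulk RNA fewer cells of a type and less RNA per cell cannot be told apart.

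Imprinting rests on DNA methylation laid down in the egg or the sperm at imprinting control regions. After fertilisation this methylation is kept by a complex of the zinc finger protein ZFP57 with TRIM28, which binds the methylated hexamer TGCCGC, and by the methyltransferase DNMT1. Imprinted genes lie in clusters in which a non-coding RNA is often made from the parental copy whose neighbours are silent. Many of them act on growth of the embryo and placenta, with genes expressed from the paternal copy often promoting growth and genes expressed from the maternal copy often restraining it. Of the 36 genes, 19 are known for paternal and 12 for maternal expression, and 5 depend on tissue or transcript (Grb10, Ube3a, Gnas, Inpp5f and Commd1). They lie at 16 loci.

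Levels ran from genes near 0 to the top percentile of the genes listed. Gnas, which encodes the stimulatory G protein subunit, had the highest level per length, with 511 FPKM in IWR1, 485 FPKM in Y27 and 578 FPKM in NT. Peg10, a retrotransposon-derived gene needed in the placenta, had 148, 202 and 181 FPKM in the same libraries. Snrpn, which encodes a spliceosomal protein, had 191, 144 and 145 FPKM. Phlda2, which restrains placental growth, had 77.0, 98.2 and 111 FPKM, and Grb10, an adaptor that restrains insulin and IGF signalling, had 114, 108 and 106 FPKM. These 5 genes were above 100 FPKM in NT, and Gnas lay at percentile 99.2 and Grb10 at percentile 95.4 of the genes listed there. At the other end, 6 genes were under 1 FPKM in every library. They were Usp29, Airn, Cdkn1c, Dlk1, Rtl1 and Kcnq1, and all but Usp29 were too low to be compared between libraries. In the order of levels Peg3, a zinc finger gene, ranked 7 of the 35 in IWR1, 4 in Y27 and 7 in NT, and Ascl2, a trophoblast transcription factor, ranked 22, 28 and 22.

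**Figure D1:**
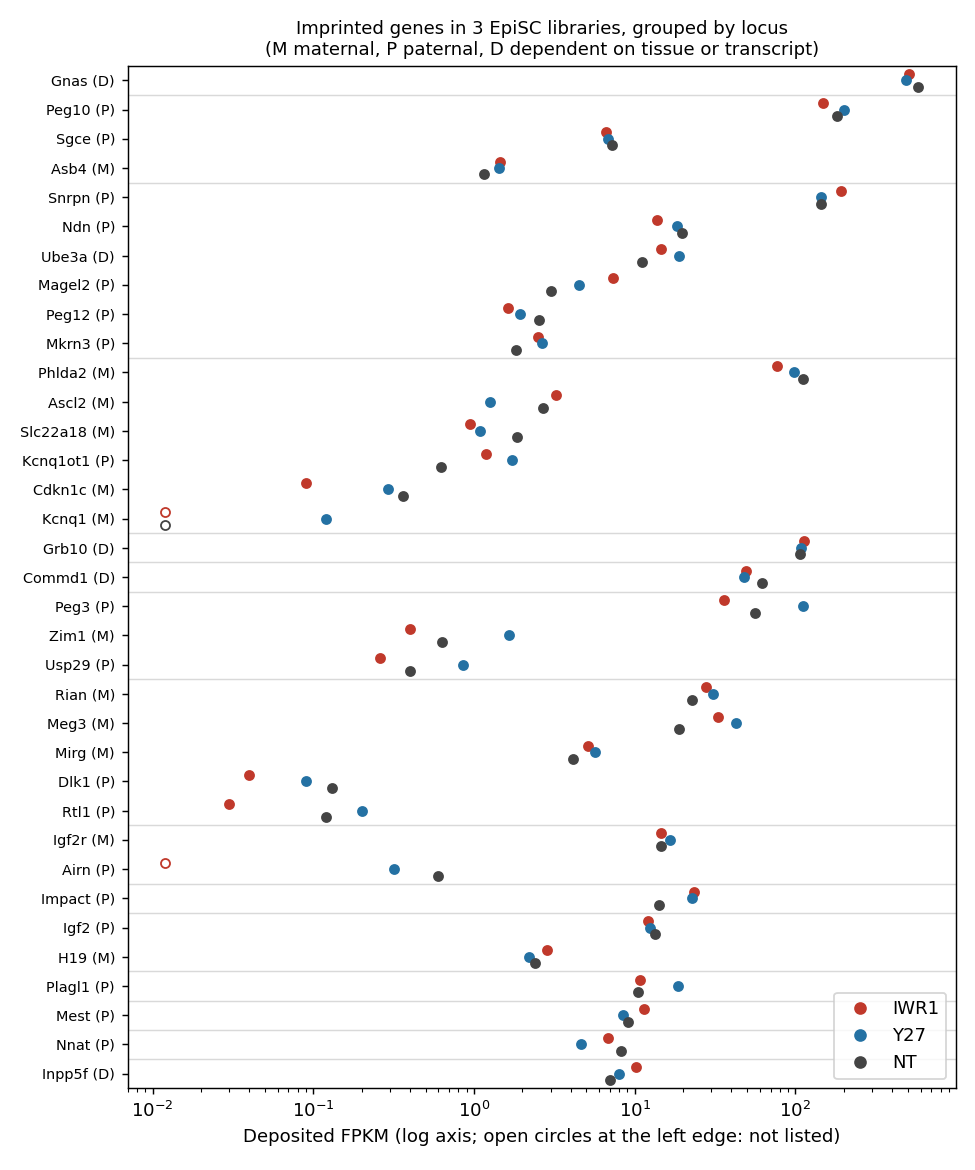
Deposited FPKM of the 35 listed imprinted genes in the IWR1, Y27 and NT libraries (log axis), grouped by locus, with the known parental copy in brackets. Gnas lies highest, at 485 FPKM or more, and Dlk1, Rtl1, Cdkn1c and Kcnq1 lie under 1 FPKM.

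The Peg3 locus on chromosome 7 held the largest log2 difference between the inhibitor libraries among the 30 genes compared. Peg3, expressed from the paternal copy, encodes a large zinc finger protein and had 1351 reads in IWR1, 4084 in Y27 and 2166 in NT. This is 241 CPM in IWR1, 732 CPM in Y27 and 383 CPM in NT, so that Y27 was highest and IWR1 lowest. Peg3 was 3.03-fold lower in IWR1 than in Y27 (2.85 to 3.23), a log2 difference of -1.60. It was 1.59-fold lower in IWR1 than in NT (1.48 to 1.70) and 1.91-fold higher in Y27 than in NT (1.81 to 2.01). Usp29, a ubiquitin protease gene also expressed from the paternal copy, had 11 reads in IWR1, 35.1 in Y27 and 17.5 in NT. Zim1, a zinc finger gene expressed from the maternal copy, had 8 reads in IWR1, 32 in Y27 and 13 in NT. Both low genes thus had the same order as Peg3, with Y27 highest. Usp29 was 3.20-fold lower (1.58 to 6.97) and Zim1 4.01-fold lower (1.81 to 10.1) in IWR1 than in Y27. Against NT, Zim1 was 2.49-fold higher in Y27 (1.27 to 5.18) and Usp29 2.03-fold higher (1.09 to 3.69), the first just past 2-fold on the log2 scale at 1.03 and the second short of it at 0.83. Zim1 came out under 2-fold at 0.96 after correction for length and GC content and at 0.56 with 5 CPM added, and Usp29 was at 0.18 after the correction. Their intervals for IWR1 over NT included 1. With 5 CPM added Peg3 alone of these stayed past 2-fold in IWR1 over Y27, and the counts of Usp29 are partly fractional.

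Peg3 and Usp29 start close together in opposite directions, and their promoter windows in RefSeq on GRCm38, from 250 bases before to 50 bases after the start, share 263 bases. The Peg3 window, shown because this pair had the same order of libraries, lies at chr7:6730370-6730669 on the minus strand, with capitals for the stretch shared with Usp29. The Zim1 window lies at chr7:6696383-6696682 on the minus strand, with capitals for TGCCGC read on the opposite strand.
Peg3: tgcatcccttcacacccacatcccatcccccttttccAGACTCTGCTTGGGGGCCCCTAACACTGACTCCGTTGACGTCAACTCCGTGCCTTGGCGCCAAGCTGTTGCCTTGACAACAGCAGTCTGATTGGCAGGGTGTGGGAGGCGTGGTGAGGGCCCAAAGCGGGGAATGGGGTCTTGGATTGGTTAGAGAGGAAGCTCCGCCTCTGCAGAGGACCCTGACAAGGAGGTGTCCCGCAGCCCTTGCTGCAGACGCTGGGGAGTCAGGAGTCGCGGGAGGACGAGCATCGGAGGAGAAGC
Zim1: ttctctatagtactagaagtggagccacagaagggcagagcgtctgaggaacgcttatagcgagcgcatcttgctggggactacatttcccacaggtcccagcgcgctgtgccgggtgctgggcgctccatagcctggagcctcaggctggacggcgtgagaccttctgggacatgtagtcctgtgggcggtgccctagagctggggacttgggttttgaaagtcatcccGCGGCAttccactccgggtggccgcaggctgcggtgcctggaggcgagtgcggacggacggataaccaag
Neither the Peg3 nor the Usp29 window held TGCCGC on either strand, and the Zim1 window held it 1 time. The windows held 13 CpG in Peg3, 17 in Usp29 and 20 in Zim1. Of the 28 imprinted genes with both a row in the expression tables and a window, 9 (32.1%) held TGCCGC in at least 1 window, against 20.2% of all 13280 such genes. The 9 were Nnat, Mest, Zim1, Snrpn, Igf2, Plagl1, Grb10, Commd1 and Meg3. Genes differ in their number of windows, and among those with 1 window the motif was held by 3 of 20 imprinted genes (15.0%), against 17.7% of all 10762 such genes. A match of the letters is no measure of binding or methylation.

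At the Dlk1-Dio3 locus on chromosome 12, the RNAs of the maternal copy were present and the genes of the paternal copy were almost absent. Meg3, a long non-coding RNA, had 579 reads in IWR1, 789 in Y27 and 350 in NT, on partly fractional counts. Rian, which hosts small nucleolar RNAs and microRNAs, had 560, 602 and 473 reads, and Mirg, a microRNA host further along, had 37.3, 40 and 31 reads. Both inhibitor libraries lay above NT for each of these RNAs, with Y27 highest. Per length, Meg3 had 32.8 FPKM in IWR1, 42.9 FPKM in Y27 and 18.9 FPKM in NT, and Rian 27.7, 30.6 and 22.7 FPKM. Dlk1, which encodes a Notch-like ligand, had only 1, 2 and 3 reads, and Rtl1, a retrotransposon-derived gene needed in placental vessels, had 1.01, 5.65 and 3.54 reads, so neither reached 0.25 FPKM. Dio3, a deiodinase gene at the far end of the locus that is not among the 36, had 1 read in IWR1 and 1 in NT and was not listed in Y27, and is named here after its values were seen.

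Meg3 was 2.28-fold higher in Y27 than in NT (2.01 to 2.60) and 1.67-fold higher in IWR1 than in NT (1.46 to 1.91). Rian, from the same strand, was 1.29-fold higher in Y27 (1.14 to 1.46) and 1.20-fold higher in IWR1 (1.06 to 1.35). The intervals of Mirg included 1 in every comparison. The log2 difference of Rian in Y27 over NT, 0.36, was -0.01 after correction for length and GC content, as was that of IWR1 over NT, 0.26 before it, while that of Meg3 was 1.39 with and 1.18 without it. Meg3 has more than 1 promoter window, and the one at chr12:109545148-109545447 held no TGCCGC. The Meg3 window shown, because Meg3 passed 2-fold, lies at chr12:109540746-109541045 on the plus strand. It held TGCCGC 1 time, read on the opposite strand and set in capitals.
Meg3: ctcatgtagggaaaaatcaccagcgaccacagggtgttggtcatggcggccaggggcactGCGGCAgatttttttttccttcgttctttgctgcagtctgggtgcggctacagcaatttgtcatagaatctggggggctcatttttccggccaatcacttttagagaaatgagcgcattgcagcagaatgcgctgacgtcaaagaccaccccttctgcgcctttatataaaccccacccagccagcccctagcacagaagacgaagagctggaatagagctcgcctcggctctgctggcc

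At the Kcnq1 locus on chromosome 7, the highest ratio to NT was that of Kcnq1ot1, a long antisense RNA made from the paternal copy that silences its neighbours. Kcnq1ot1 had 566 reads in IWR1, 801 in Y27 and 302 in NT, on partly fractional counts. It was 2.69-fold higher in Y27 than in NT (2.35 to 3.08) and 1.89-fold higher in IWR1 than in NT (1.64 to 2.18). Its level per length stayed low, at 1.19 FPKM in IWR1, 1.73 FPKM in Y27 and 0.62 FPKM in NT, because its row is 83437 bases long. Among the genes compared only 1 had a longer row. With length and GC content corrected for, the Y27 over NT log2 difference of Kcnq1ot1 was -0.62 in place of 1.41, and that of IWR1 over NT was -0.45 in place of 0.91. That length lies far beyond 11496 bases, the 99th percentile of the genes compared, so the fit rests on few genes there, Kcnq1ot1 itself among them. Its promoter window, shown as the start of the RNA with the highest ratio to NT, lies at chr7:143296498-143296797 on the minus strand and held no TGCCGC.
Kcnq1ot1: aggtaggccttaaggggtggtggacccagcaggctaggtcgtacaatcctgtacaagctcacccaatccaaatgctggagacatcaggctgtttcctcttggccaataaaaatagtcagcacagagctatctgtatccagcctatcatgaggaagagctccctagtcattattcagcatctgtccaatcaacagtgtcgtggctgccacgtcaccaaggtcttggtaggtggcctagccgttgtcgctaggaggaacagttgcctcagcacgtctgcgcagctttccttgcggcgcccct

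Malat1 and Neat1, nuclear long non-coding RNAs chosen here after their values were seen, were also higher in both inhibitor libraries than in NT. Malat1 had 628 CPM in IWR1, 857 CPM in Y27 and 264 CPM in NT, and Neat1 had 47.2, 51.8 and 21.9 CPM. Malat1 was thus 3.25-fold (3.07 to 3.45) and Neat1 2.36-fold (1.91 to 2.94) higher in Y27 than in NT. After correction for length and GC content the Y27 over NT log2 difference of Malat1 was 0.86, against 1.70 before it, and that of IWR1 over NT was 0.69, against 1.25. Kcnq1ot1 lay below NT in both after the same correction, at -0.62 and -0.45, and Neat1 stayed above, at 1.31 and 1.15.

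The genes of the maternal copy that Kcnq1ot1 neighbours did not share its order. Phlda2 had 308 reads in IWR1, 382 in Y27 and 457 in NT, with NT highest. It was 1.47-fold lower in IWR1 than in NT (1.27 to 1.70) and 1.18-fold lower in Y27 than in NT (1.03 to 1.36). The Y27 over NT log2 difference of Phlda2 was 0.13 after the correction and -0.24 before it, and that of IWR1 over NT was -0.26 and -0.55. Ascl2, also a target of Wnt signalling, had 29 reads in IWR1, 11 in Y27 and 25 in NT. It was 2.63-fold higher in IWR1 than in Y27 (1.28 to 5.83), a log2 difference of 1.06 that came out under 2-fold, at 0.55 with 5 CPM added and at 0.99 after the correction. Ascl2 is also among the trophoblast markers summed above. Slc22a18, a transporter gene, had 8, 9 and 16 reads in IWR1, Y27 and NT, and its intervals included 1. Cdkn1c, which encodes the cell cycle inhibitor p57, had 1, 3 and 4 reads. Kcnq1 itself, a potassium channel gene, had 2 reads in Y27 and was not listed in IWR1 or NT, where 3 reads would be 0.536 and 0.531 CPM. Kcnq1ot1 lies inside Kcnq1 on the other strand, and the sources used here do not state whether counting used strand.

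**Figure D2:**
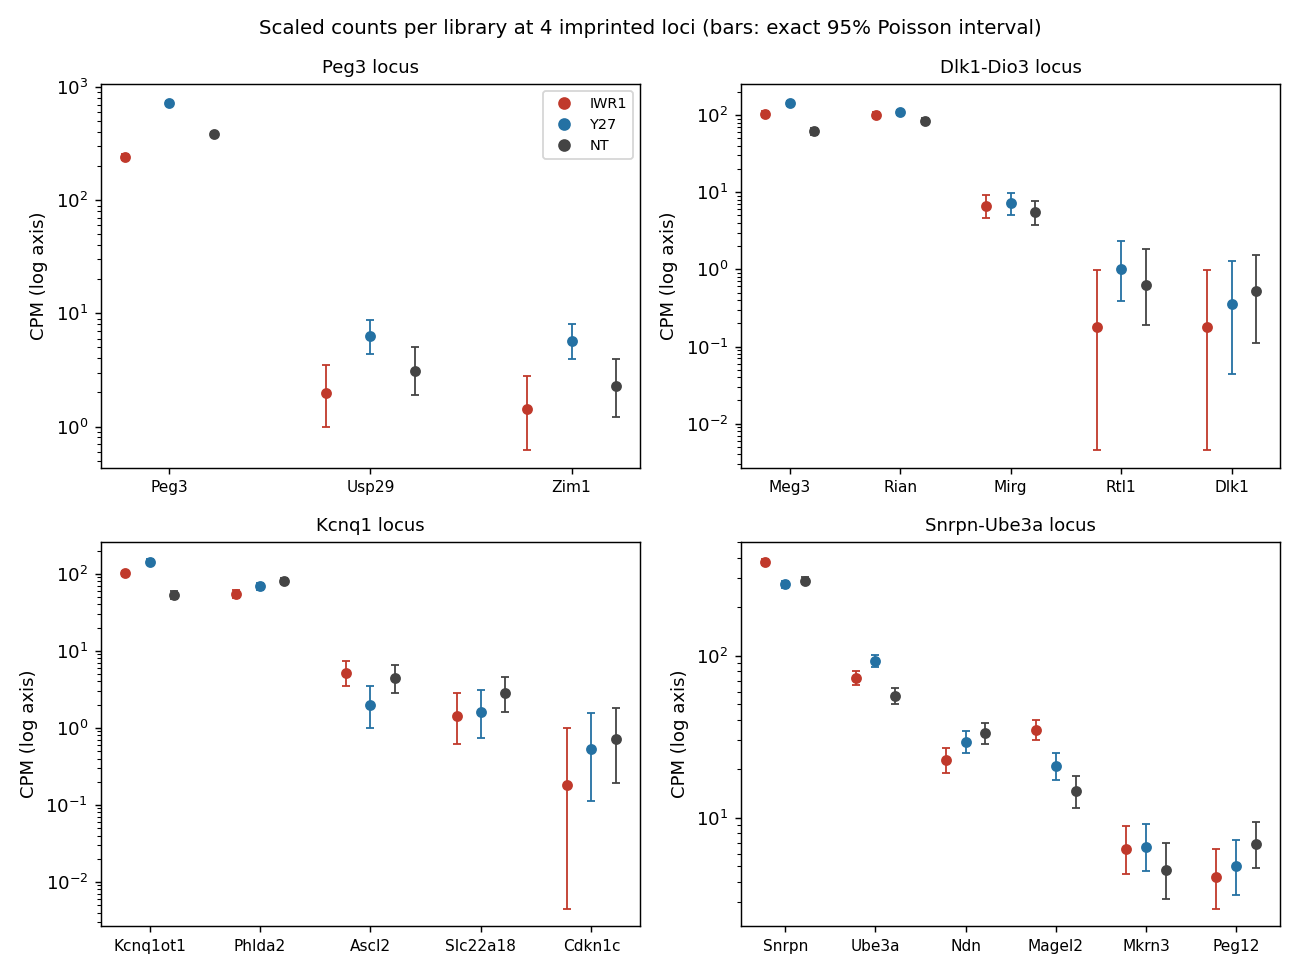
CPM (log axis) of the genes of 4 imprinted loci in the IWR1, Y27 and NT libraries, with exact 95% Poisson intervals of the counts. At the Peg3 locus Y27 is highest and IWR1 lowest for Peg3, Usp29 and Zim1, and Magel2 is highest in IWR1.

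At the Snrpn-Ube3a locus on chromosome 7, which corresponds to the human Prader-Willi and Angelman region, the genes of the paternal copy differed in their order of libraries. Magel2, a gene of the MAGE family with a role in protein trafficking, had 194 reads in IWR1, 116 in Y27 and 82 in NT. It was 2.39-fold higher in IWR1 than in NT (1.84 to 3.13), and 1.43-fold higher in Y27 than in NT (1.07 to 1.93). Its log2 difference of 1.20 in IWR1 over NT lay between 1.02 and 1.33 under the 6 alternatives in which it was recomputed. Ndn, a related MAGE family gene beside it, had the opposite order, with 127 reads in IWR1, 164 in Y27 and 188 in NT, and was 1.47-fold lower in IWR1 than in NT (1.16 to 1.85). Mkrn3, a RING finger gene, had 36, 37 and 27 reads in IWR1, Y27 and NT, and Peg12, of the Frat family, 24, 28 and 39 reads, and the intervals of both included 1 in every comparison.

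Snrpn had 2109 reads in IWR1, 1544 in Y27 and 1642 in NT. It was 1.30-fold higher in IWR1 than in NT (1.22 to 1.38), and its interval in Y27 over NT included 1. Snurf, which shares transcripts with Snrpn, is not among the 36 and is named after its values were seen, had 106 reads in IWR1, 190 in Y27 and 187 in NT, the reverse order of the inhibitor libraries. The counts of both are partly fractional, and the split of reads between them is uncertain. Ube3a, a ubiquitin ligase gene whose paternal copy is silent in neurons and active in most other cells, had 408 reads in IWR1, 516 in Y27 and 319 in NT. It was 1.64-fold higher in Y27 than in NT (1.42 to 1.89), but its log2 difference of 0.70 was -0.01 after correction for length and GC content.

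At the Peg10-Sgce locus on chromosome 6, Peg10 and Sgce also start from a shared promoter region. Peg10 had 5593 reads in IWR1, 7427 in Y27 and 7045 in NT, and was 1.25-fold lower in IWR1 (1.20 to 1.29) and 1.07-fold higher in Y27 (1.03 to 1.10) than in NT. After correction for length and GC content its log2 differences were -0.51 in IWR1 and -0.19 in Y27 over NT. Sgce, which encodes epsilon-sarcoglycan, had 63, 64 and 71 reads, and its intervals included 1. Asb4, a gene of the maternal copy, had 27, 26 and 22 reads. Per length Peg10 had 148 FPKM in IWR1, 202 FPKM in Y27 and 181 FPKM in NT, against 6.59, 6.80 and 7.22 FPKM of Sgce. Calcr, the calcitonin receptor gene, and Ppp1r9a, an actin-binding scaffold gene, lie at the same locus and were among the other imprinted genes looked up. Calcr had 94 reads in IWR1, 38 in Y27 and 19 in NT, and was higher in IWR1 than in NT by 2.03 on the log2 scale (fold interval 3.03 to 8.67) and 2.47-fold higher in IWR1 than in Y27 (1.68 to 3.70). Ppp1r9a had 239 reads in IWR1, 316 in Y27 and 113 in NT, and was 2.14-fold higher in IWR1 (1.70 to 2.70) and 2.84-fold higher in Y27 (2.28 to 3.54) than in NT. With 5 CPM added, the log2 differences of Calcr were 1.38 in IWR1 over NT and 0.88 in IWR1 over Y27, the second under 2-fold. The IWR1 over NT log2 difference of Ppp1r9a, 1.06, was 0.81 after the correction.

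The growth factor loci differed little. Igf2, a fetal growth factor of the paternal copy, had 262 reads in IWR1, 261 in Y27 and 301 in NT, at 12.1, 12.4 and 13.4 FPKM. H19, a long non-coding RNA of the maternal copy that shares enhancers with Igf2, had 36.8, 27.6 and 31.7 reads, at 2.86, 2.21 and 2.40 FPKM. The intervals of both included 1 in every comparison. Igf2r, which clears IGF2 and is expressed from the maternal copy, had 738 reads in IWR1, 824 in Y27 and 762 in NT. It was 1.12-fold lower in IWR1 than in Y27 (1.01 to 1.24). Airn, the antisense RNA of the paternal copy that silences Igf2r, was not listed in IWR1 and had 2 reads in Y27 and 4 in NT. The row of Airn is 1176 bases long, and reads from outside that transcript would not be counted in it.

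Among the genes at loci of their own, Plagl1, a zinc finger gene that regulates other imprinted genes, had 321 reads in IWR1, 544 in Y27 and 322 in NT. It was 1.71-fold higher in Y27 than in NT (1.49 to 1.97), and its interval in IWR1 over NT was 0.860 to 1.18. Impact, which encodes an inhibitor of the kinase GCN2, had 450 reads in IWR1, 426 in Y27 and 284 in NT, higher in both inhibitor libraries, by 1.60-fold in IWR1 (1.38 to 1.86) and 1.52-fold in Y27 (1.30 to 1.77). Nnat, which encodes neuronatin, a membrane proteolipid, had 47, 29 and 59 reads. It was 2.01-fold lower in Y27 than in NT (1.27 to 3.25), at -0.88 on the log2 scale and so short of 2-fold there. That log2 difference was -0.54 after correction for length and GC content and -0.60 with 5 CPM added. Mest, which encodes an enzyme-like protein tied to fetal growth, had 166 reads in IWR1, 120 in Y27 and 135 in NT, and was 1.38-fold higher in IWR1 than in Y27 (1.08 to 1.76).

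Genes whose imprint depends on tissue or transcript stayed under 2-fold throughout. Gnas was 1.16-fold lower in IWR1 (1.12 to 1.21) and 1.24-fold lower in Y27 (1.19 to 1.29) than in NT. Its log2 differences of -0.22 and -0.31 were 0.004 and -0.004 after correction for length and GC content. Commd1, which encodes a protein of copper and receptor trafficking, was 1.27-fold (1.06 to 1.53) and 1.34-fold (1.12 to 1.61) lower in IWR1 and Y27. After the same correction its log2 differences of -0.34 and -0.42 were -0.25 and -0.22. Zrsr1, a splicing factor gene of the paternal copy inside Commd1 that is not among the 36, had 95, 103 and 98 reads in IWR1, Y27 and NT, and is named after its values were seen. Inpp5f, a phosphoinositide phosphatase gene with an imprinted short transcript, was 1.41-fold higher in IWR1 than in NT (1.17 to 1.70). Grb10 had 3281 reads in IWR1, 3031 in Y27 and 3148 in NT, and was 1.05-fold higher in IWR1 than in NT (1.00 to 1.11).

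**Figure D3:**
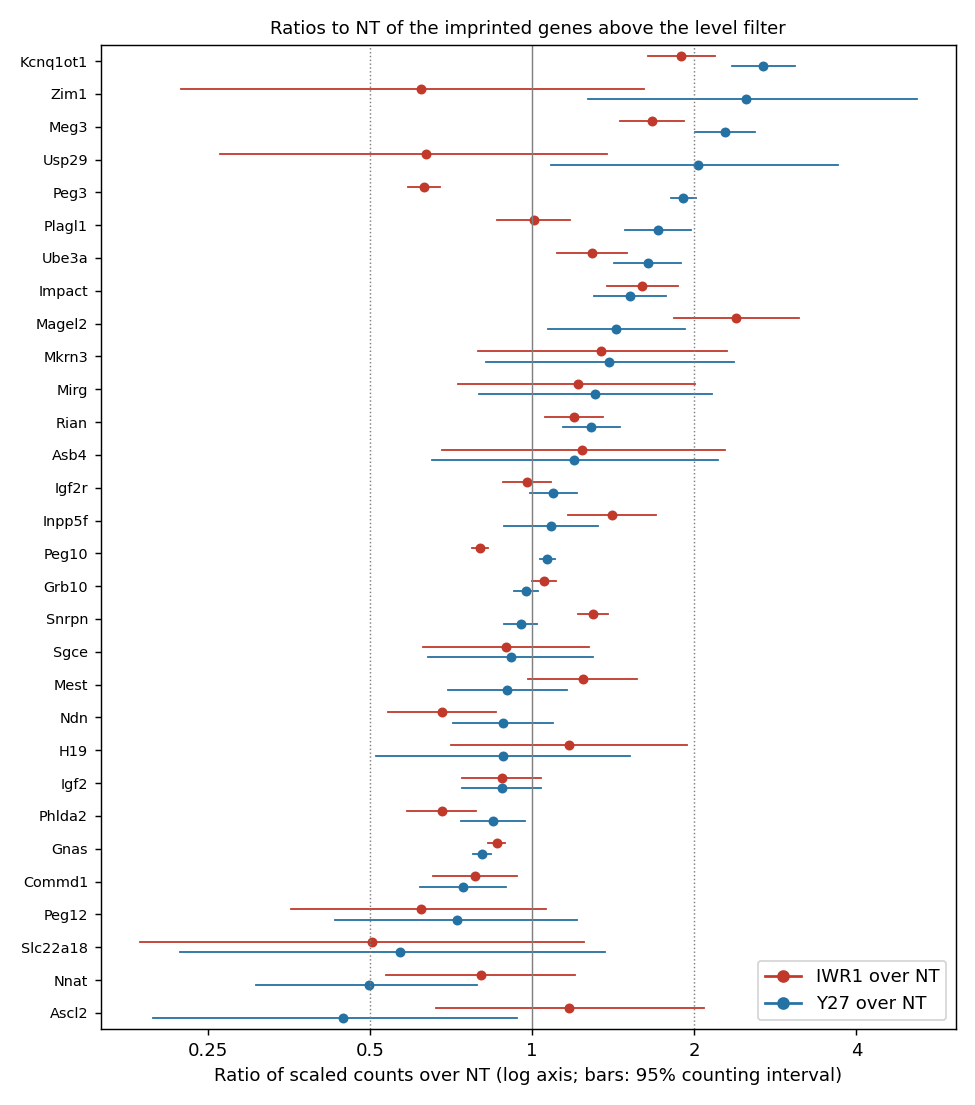
Ratios of scaled counts over NT for the 30 imprinted genes compared, in IWR1 and Y27 (log axis, dotted lines at 2-fold, bars for exact 95% counting intervals). Kcnq1ot1 and Meg3 lie to the right in both, and Peg3 lies at 1.91 in Y27 and at 0.630 in IWR1.

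Counted over the list, few imprinted genes passed 2-fold. In IWR1 over NT 1 of 30 was higher (Magel2), against 2.28% of all genes compared, and 0 were lower, against 2.25%. The median log2 difference was 0.04 for the imprinted genes and 0.00 for all genes. In Y27 over NT 3 of 30 were higher (Kcnq1ot1, Meg3 and Zim1), against 5.58% of all genes, and 0 were lower, against 1.34%, with medians of 0.11 and -0.02. In IWR1 over Y27 1 of 30 was higher (Ascl2), against 1.38%, and 3 were lower (Peg3, Usp29 and Zim1), against 2.90%, with medians of -0.07 and 0.00. After correction for length and GC content 1 of 30 (Meg3) was higher in Y27 over NT, against 2.20% of all genes. In IWR1 over Y27 0 were then higher, against 1.28%. The 3 lower genes are the whole listed set of the Peg3 locus, so they are neighbours rather than separate cases. The intervals of 15, 14 and 12 of the 30 included 1 in IWR1 over NT, Y27 over NT and IWR1 over Y27.

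Genes of paternal and of maternal expression lay on both sides of 0. In IWR1 over NT 7 of 15 genes of paternal and 6 of 10 of maternal expression lay above 0, with medians of -0.15 and 0.19. In Y27 over NT 8 of 15 and 6 of 10 lay above 0, with medians of 0.10 and 0.17. In IWR1 over Y27 6 of 15 and 3 of 10 did, with medians of -0.04 and -0.11. Of all genes compared, 49.7% lay above 0 in IWR1 over NT, 48.1% in Y27 over NT and 50.1% in IWR1 over Y27. A difference between the parental classes was not tested.

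**Figure D4:**
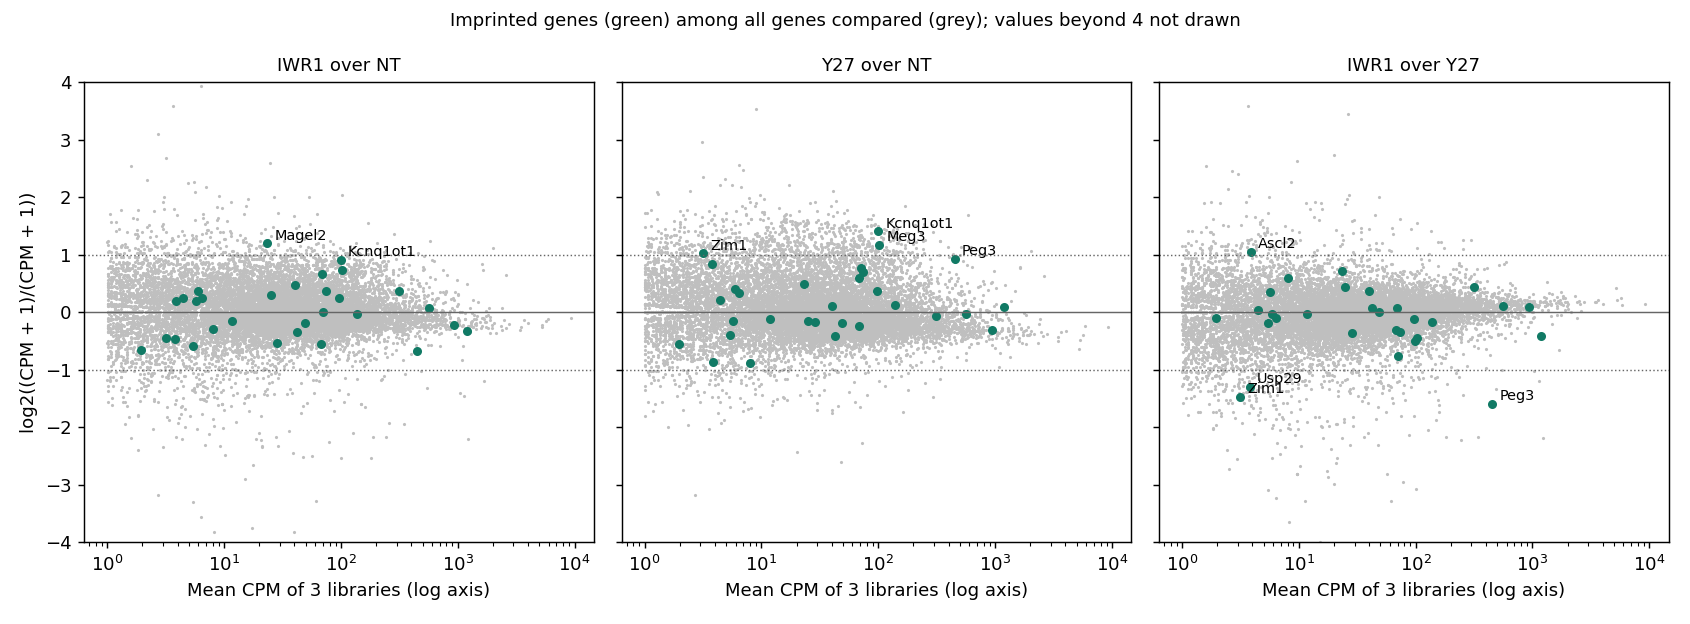
Log2 difference against mean CPM (log axis) for all 12955 genes compared, in grey, and the 30 imprinted genes, in green, for IWR1 over NT, Y27 over NT and IWR1 over Y27. Most imprinted genes lie between the dotted 2-fold lines, and Peg3 stands apart in IWR1 over Y27 at -1.60.

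Genes that set, read or keep imprints were looked up as a separate list, of which 27 of 28 were listed and 25 compared. Like the members, this list was chosen with earlier results of these data known, so its counts beside all genes are description and no test. Dppa3, an egg factor that protects imprints from demethylation, was the one not listed. Trim28 had 1311 CPM in IWR1, 1367 CPM in Y27 and 1611 CPM in NT, 1.23-fold (1.19 to 1.27) and 1.18-fold (1.14 to 1.22) lower in the inhibitor libraries. Zfp57 had 74.7, 79.2 and 60.2 CPM, 1.24-fold (1.07 to 1.44) and 1.32-fold (1.14 to 1.52) higher. Dnmt1, at 413, 395 and 400.0 CPM, had intervals that included 1. The de novo methyltransferase gene Dnmt3a had 230 CPM in IWR1, 192 CPM in Y27 and 171 CPM in NT, and Dnmt3b had 750, 425 and 379 CPM. Dnmt3b was 1.98-fold higher in IWR1 than in NT (1.88 to 2.09), a log2 difference of 0.98 that was past 2-fold, at 1.07, after correction for length and GC content.

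In IWR1 over NT 3 of the 25 were at least 2-fold higher, against 2.28% of all genes, and 0 lower, against 2.25%. They were Zfp445, a zinc finger gene that maintains imprints beside Zfp57, Hells, a chromatin remodeller gene that aids DNA methylation, and Tet1, which oxidises methylcytosine. In Y27 over NT 6 of the 25 were at least 2-fold higher, against 5.58% of all genes, and 1 lower, against 1.34%. Zfp445 had 602 reads in IWR1, 781 in Y27 and 277 in NT, and was 2.19-fold (1.90 to 2.54) and 2.86-fold (2.49 to 3.29) higher. Hells was 2.15-fold (1.90 to 2.44) and 2.53-fold (2.24 to 2.86) higher, and Tet1 2.25-fold (1.99 to 2.55) and 2.13-fold (1.88 to 2.41). Arid4b, Kdm1b and Smchd1, all chromatin regulator genes, passed 2-fold in Y27 over NT, at 2.71-fold (2.16 to 3.43), 2.07-fold (1.71 to 2.50) and 2.02-fold (1.82 to 2.26). The lower gene was Dnmt3l, a cofactor of the de novo enzymes, with 6 reads in Y27 and 26 in NT, named after its values were seen. After correction for length and GC content, the Y27 over NT log2 differences of Zfp445 and Hells were 1.23 and 1.07. Those of Arid4b, Kdm1b, Tet1 and Smchd1 were 0.98, 0.79, 0.71 and 0.28. The 3 in IWR1 over NT came out under 2-fold, at 0.94, 0.90 and 0.93 for Zfp445, Hells and Tet1, while Dnmt3b came out past it. Of all genes, 2.20% were then at least 2-fold higher in Y27 over NT and 1.56% in IWR1 over NT. A count over all 25 after the correction was not made. In IWR1 over Y27 0 of the 25 passed 2-fold in either direction, against 1.38% higher and 2.90% lower among all genes.

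Other imprinted genes, 35 of 42 of them listed and 24 compared, gave 2 higher in IWR1 over NT (Calcr and Ppp1r9a), against 2.28% of all genes, 1 higher in Y27 over NT (Ppp1r9a), against 5.58%, and 1 higher in IWR1 over Y27 (Calcr), against 1.38%. In the 3 comparisons 0 were lower, against 2.25%, 1.34% and 2.90% of all genes. Their medians were -0.02, 0.06 and -0.02. Zdbf2, a zinc finger gene of the paternal copy, had 696 reads in IWR1, 839 in Y27 and 445 in NT, named after its values were seen.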

How the data were processed

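RNA-seq tables of 3 EpiSC libraries were used, grouped by their labels. Per the file headers, each table gives transcript length, expected count and FPKM per Entrez gene. The authors deposited expected counts, which are estimated reads without normalization, and 78.0% of the genes had whole counts in every library. The FPKM values were computed by the authors, and recomputing them from count, length and total gave values within 2% for 94.0% to 94.2% of genes with over 50 reads. The submitters' processing notes name Bowtie 0.12.2 and mm8. The sources used here do not name the counting tool. Symbols, promoter windows and chromosomes came from RefSeq on GRCm38, and 99.7% of identifiers matched. Coordinates are given for promoter windows alone, since the files' build differs from GRCm38.

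A gene absent from a table was taken as 0, and 0.536, 0.538 and 0.531 CPM in IWR1, Y27 and NT correspond to 3 reads. Counts were scaled with TMM factors (0.998, 1.02 and 0.980) from edgeR 4.0.16 in R 4.3.3, with a pseudocount of 1 CPM. Intervals are exact conditional binomial intervals on rounded counts. Parental copies are background knowledge. Values are given in every library for members with at least 30 reads in the highest library or past 2-fold, and, from lists of imprinting regulators and other imprinted genes, for up to 6 genes each past 2-fold with 5 CPM or more in the higher library, plus Trim28, Zfp57, Dppa3, Dnmt1, Dnmt3a and Dnmt3b. Genes of a shared promoter are given side by side. The members and lists were chosen with earlier results of these data known. The correction for length and GC content subtracts a cubic polynomial fitted to the log2 differences of all genes compared. GC content, the mean over a gene's GENCODE transcripts, was found for 99.2% of the genes compared. Steps were tested on simulated data. DESeq2 1.42.0 gave size factors for an alternative. Tables and plots were made in Python 3.11.15 with scipy 1.17.1, numpy 2.4.6, matplotlib 3.10.9 and pandas 2.3.3.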

Additional observations from a re-analysis of the deposited data

Results flagged for a closer look

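Peg3 and Peg10 stood out because the IWR1 and Y27 libraries lay on opposite sides of NT, each with a counting interval that excluded 1. Peg3 had log2 differences of -0.67 in IWR1 over NT and 0.93 in Y27 over NT, and of -1.60 in IWR1 over Y27. Peg10 had -0.32 and 0.10, and -0.41 in IWR1 over Y27. After correction for length and GC content Peg10 lay below NT in both libraries, at -0.51 in IWR1 and -0.19 in Y27, and Peg3 stayed on opposite sides, at -0.78 and 0.75. With 1 library per group the difference was not tested.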

How the results depend on the processing

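No paired analysis was possible because each group had 1 library. With 1.5-fold in place of 2-fold, 4 of 30 members were higher and 2 lower in IWR1 over NT, against 10.8% and 6.37% of all genes. In Y27 over NT 8 were higher and 2 lower, against 14.9% and 5.53%, and in IWR1 over Y27 3 were higher and 4 lower, against 5.06% and 8.20%. With a pseudocount of 5 CPM, as with a minimum mean of 5 CPM, IWR1 over Y27 had 0 higher and 1 lower. Of all genes, 0.409% were higher and 1.13% lower with that pseudocount, and 0.85% and 2.09% with that minimum. With a pseudocount of 0.1 CPM, and with deposited FPKM, 1 member, Ascl2, was lower in Y27 over NT, at -1.13 and -1.04. The shares of all genes lower there were 2.47% and 1.83%. With the trend of length and GC content removed, Y27 over NT had 1 higher, against 2.20% of all genes. IWR1 over Y27 then had 0 higher, against 1.28%. Over genes with whole counts alone, 22 of them members, Y27 over NT had 1 higher, against 4.27%. Kcnq1ot1 changed sign with the trend removed, to -0.62 in Y27 over NT. Of 792 recomputed values of 44 single genes, 745 stayed within their counting interval and 46 moved beyond it. Of these 46, 39 moved with the trend removed. The remaining 1, marked as reversed, was Kcnq1ot1 in Y27 over NT, but it was not the only value to change sign. Removing the trend took Kcnq1ot1 from 0.91 to -0.45 in IWR1 over NT and from -0.50 to 0.18 in IWR1 over Y27. Among others, Peg10, Inpp5f and Phlda2 changed sign in Y27 over NT, to -0.19, -0.175 and 0.13. With the trend removed the median of the members changed sign, from 0.105 to -0.007 in Y27 over NT and from 0.041 to -0.02 in IWR1 over NT. Over genes with whole counts alone these medians also lay below 0. The IWR1 over Y27 median lay below 0 under every alternative run. All stayed within the order-statistic interval of the members, which in Y27 over NT ran from -0.152 to 0.401. That interval reflects the spread between members, some of them neighbours at the same locus, so it cannot show that the medians are stable. Over all genes the trend removal left 282 higher and 114 lower in Y27 over NT, against 723 and 173 before. In IWR1 over NT it left 201 and 253, against 295 and 292. Members with few reads, such as Usp29, Zim1, Ascl2 and Slc22a18, are limited by depth.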
